A study of Mus musculus with 6 samples.

Results

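The 10 genes described here encode the core of the switch from G1 to S phase. They are the D cyclins Ccnd1, Ccnd2 and Ccnd3, the E cyclins Ccne1 and Ccne2, the kinases Cdk4 and Cdk6, and the inhibitors Cdkn1a, Cdkn1b and Cdkn2c. Members were chosen by gene symbol, and all 10 were among the 24421 symbols in each of the 6 count tables and among the 13848 that passed the filter on low counts. The libraries were labelled as whole embryo of the C57BL/6N mouse strain at embryonic day 9.5, with 3 from embryos homozygous for a knockout of Lphn2 (KO) and 3 from wild type embryos (WT). Lphn2, now named Adgrl2, encodes the adhesion receptor latrophilin-2, and the title of the series sets the study in heart development. The labels do not give the deleted part of the gene, nor whether a library is 1 embryo, so the p-values measure the spread between these libraries, which may in part be technical.

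D cyclins bind Cdk4 or Cdk6 and start the phosphorylation of the retinoblastoma protein, which frees E2F factors. E2F factors then switch on the E cyclins, which act with Cdk2 to begin DNA replication. The protein p21 (Cdkn1a) and p27 (Cdkn1b) hold back cyclin and Cdk2 complexes, while p18 (Cdkn2c) binds Cdk4 and Cdk6. In the mouse uterus after implantation, stromal cells become large polyploid decidual cells, a process in which cyclin D3 and p21 take part, and trophoblast giant cells replicate their DNA without dividing, which needs E cyclins.

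Total counts ranged from 14476809 to 23887717 in KO and from 18352150 to 36213611 in WT libraries. Adgrl2 stood at 5.49, 1.67 and 2.78 CPM (counts normalised for library depth and scaled by TMM) in KO 1 to 3 and at 10.9, 7.56 and 16 CPM in WT 1 to 3, and since tags come from the 3′ end of the transcript, this does not check the deletion. The tissue label was not fully borne out by markers. The 9 decidual markers summed to 6930 to 11800 CPM in KO and 18000 to 32900 CPM in WT libraries, a sum set largely by Prl8a2 (1280 to 5330 CPM in KO, 15000 to 28700 CPM in WT), while 5 of the 9 were higher in all KO than in all WT libraries. The 7 neural markers of the embryo summed to 8.13 to 10.4 CPM in KO and 19.6 to 157 CPM in WT libraries, with the highest value in WT 3. The 7 heart markers summed to 4.13 to 16.9 CPM in KO and 36.9 to 277 CPM in WT libraries. Nkx2-5, a defining heart factor, was at 0 counts in KO 1, KO 2, KO 3 and WT 2. It had only 7 counts in WT 1 and 20 in WT 3, and did not pass the filter on low counts. KO 2 and KO 3 stood apart from the other libraries: their 12 trophoblast markers summed to 52.9 and 146 CPM, against 3750 CPM in KO 1 and 1430 to 5960 CPM in WT libraries.

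None of the 10 genes differed between KO and WT past the threshold of an adjusted p of 0.05 (quasi-likelihood test of edgeR over all genes). Over all 13848 genes, 0.0505% were called lower and 0% higher. At an unadjusted p under 0.05, 1 member was higher (Cdkn1a) and 1 lower (Ccnd2), against 8.68% and 6.86% of all genes. At an adjusted p under 0.05, limma-voom called 0 members, and of all genes 0.0505% lower and 0% higher. In 2 members, Ccnd2 and Cdk4, all KO values lay below all WT values, which was so for 9.39% of all genes. All KO values lay above all WT values in 0 members, against 12.1% of all genes, so that the 2 members stand beside 21.5% for either direction. The members had a median log2 fold change (KO over WT) of -0.12, with 5 above and 5 below 0, beside a median of -0.04 for all genes tested. The genes did not move as 1 group, and their profiles over the libraries fell into several shapes.

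**Figure D1:**
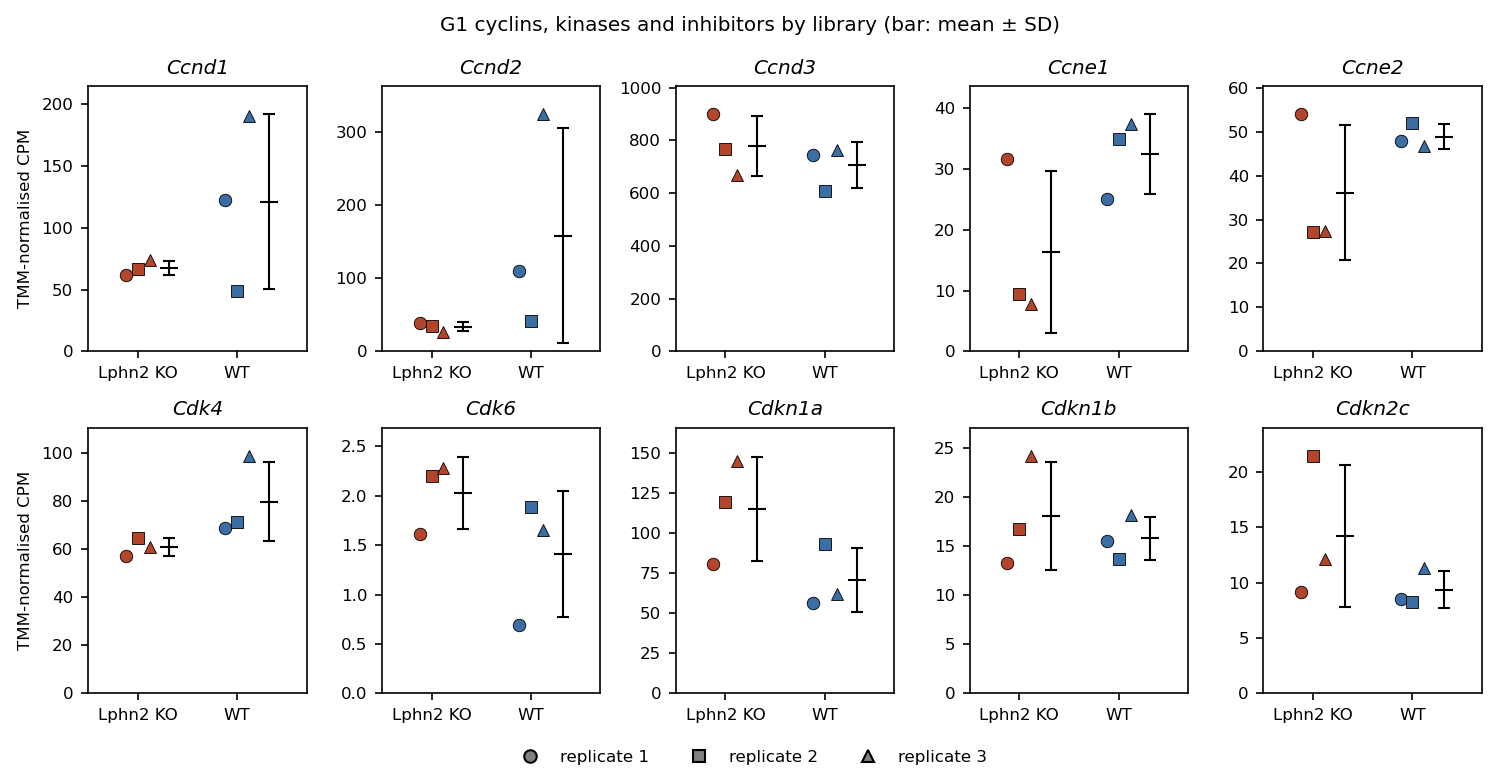
Normalised level (TMM-normalised CPM, each panel on its own axis from 0) of the 10 genes in 3 KO and 3 WT libraries. Symbols mark the replicate, and the bar gives the mean with its SD. Ccnd2 and Ccnd1 were highest in WT 3, Ccne1 and Ccne2 were lowest in KO 2 and KO 3, and Ccnd3 stayed between 608 and 898 CPM.

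Promoter stretches are shown for Cdk4, one of the 2 members whose groups did not overlap, and for Cdkn1a, the member with the highest fold change. RefSeq promoter windows of build GRCm38.p6, 250 bases before to 50 after an annotated start, were found for 7 of the 10 genes (10 windows). Cdk4 (chr10:127063285-127063584, plus strand) has the E-box CACGTG, which reads the same on both strands and is bound by Myc with Max, 4 times, printed in capitals. Of 32851 windows, 7.15% held this pattern and 8 held it 4 or more times. The window at the first start of Cdkn1a (chr17:29090729-29091028, plus strand) has 1 match, in capitals at position -48 from the start, to the core pattern of p53 sites, searched as CATG, any 6 bases and CATG, which reads the same on both strands. That pattern was in 0.712% of windows, and had 0 matches in the window at the other start of Cdkn1a (chr17:29093519-29093818, plus strand). Tags from the 3′ end do not tell which start was used. The GC box of Sp1, GGGCGG on either strand, was in 7 of the 10 windows and in 35.7% of all, and 4 spellings of the E2F site were in 0 of the 10 and in 2.26% of all. The matches describe letters and not binding.
Cdk4: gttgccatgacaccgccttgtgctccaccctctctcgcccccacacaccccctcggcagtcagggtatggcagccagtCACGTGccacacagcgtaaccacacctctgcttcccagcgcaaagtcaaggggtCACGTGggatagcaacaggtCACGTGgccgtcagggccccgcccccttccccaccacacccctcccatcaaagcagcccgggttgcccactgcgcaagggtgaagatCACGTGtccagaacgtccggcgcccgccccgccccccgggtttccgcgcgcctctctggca
Cdkn1a: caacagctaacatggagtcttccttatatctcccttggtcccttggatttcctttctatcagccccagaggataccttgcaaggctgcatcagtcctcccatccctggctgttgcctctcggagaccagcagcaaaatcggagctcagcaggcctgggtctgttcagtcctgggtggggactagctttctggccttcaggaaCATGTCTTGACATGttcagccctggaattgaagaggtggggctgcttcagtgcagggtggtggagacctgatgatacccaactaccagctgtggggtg

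Among the D cyclins, which carry growth signals into the cycle, Ccnd2 had the largest difference. Ccnd2 stood at 39.2, 35.3 and 27.2 CPM in KO 1 to 3 and at 110, 41.1 and 324 CPM in WT 1 to 3. The KO libraries were close together and all lay below WT, yet WT 2 was near KO 1 and the WT mean rested on WT 3. The log2 fold change was -2.22 ± 0.68 (SE), and it did not pass (edgeR adjusted p = 0.213). DESeq2 called it lower (adjusted p = 0.00476), the only member it called, while it called 2.77% of all genes lower and 3.6% higher. The adjusted p ranged from 0.00476 to 1 over all alternatives, and without WT 3 the fold change was -1.15. The neural marker sum, at 10.4, 8.6 and 8.13 CPM in KO 1 to 3 and 45.1, 19.6 and 157 CPM in WT 1 to 3, put the libraries in the same order as Ccnd2. The heart marker sum, at 16.4, 4.13 and 16.9 CPM in KO 1 to 3 and 75, 36.9 and 277 CPM in WT 1 to 3, did so among WT libraries but not among KO libraries, where KO 3 had the least Ccnd2 and the highest heart sum. The part of either in the Ccnd2 level was not tested. In bulk RNA, fewer cells of a type and less RNA per cell cannot be told apart.

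Ccnd1 had the same order among WT libraries, without a clear group difference. Its level was 62.1, 67.1 and 73.8 CPM in KO 1 to 3 and 123, 49.2 and 191 CPM in WT 1 to 3. WT 2 lay below every KO library, so the groups overlapped (log2 fold change -0.84 ± 0.44 SE, edgeR adjusted p = 0.401), and without WT 3 it was -0.35. The genes closest to Ccnd2 over the 6 libraries, by Pearson r of log2 CPM, were Mfap2, Id4 and Zfp423 (0.9968, 0.9955 and 0.9919). Closest to Ccnd1 were Dclk1, Arhgef25 and Ttl (0.9962, 0.9938 and 0.9923). These were picked from 9491 genes of at least 5 CPM on average over 6 libraries, where many genes reach a high r: 103 had an r above 0.95 with Ccnd2 and 73 with Ccnd1.

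Ccnd3, the D cyclin linked to decidual polyploidy, was the steady member of the family. It stood at 898, 767 and 670 CPM in KO 1 to 3 and at 746, 608 and 765 CPM in WT 1 to 3. The groups overlapped, and the log2 fold change was 0.14 ± 0.19 (SE, edgeR adjusted p = 0.75), between 0.03 and 0.37 over all alternatives. Because Ccnd1 and Ccnd2 varied while Ccnd3 did not, the make-up of the D cyclin counts shifted between libraries. Ccnd3 took 89.9%, 88.2% and 86.9% of D cyclin counts in KO 1 to 3 and 76.2%, 87.1% and 59.8% in WT 1 to 3, with exact binomial 95% half-widths of at most 0.64 percentage points. WT 2 lay among the KO values, and WT 3 stood lowest.

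The absolute size of that share depends on how Ccnd3 was counted. Its 6 counts shared the divisor 3, and the other 9 members had no common divisor above 1. Ccnd3 has 3 curated RefSeq transcripts (accessions starting NM), but so has Ccne2, and Ccnd1, Cdk4, Cdkn1a and Cdkn2c have 2 each. Among the members the divisor thus did not always equal the number of transcripts, and its cause was not tested. With the divisor removed, the share was 74.7%, 71.4% and 68.8% in KO 1 to 3 and 51.6%, 69.2% and 33.1% in WT 1 to 3. WT 2 then lay inside the range of the KO libraries and WT 1 and WT 3 below it, the same order among WT libraries as before. Counting intervals cover counting error only, and that error is larger where 1 tag was counted several times.

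**Figure D2:**
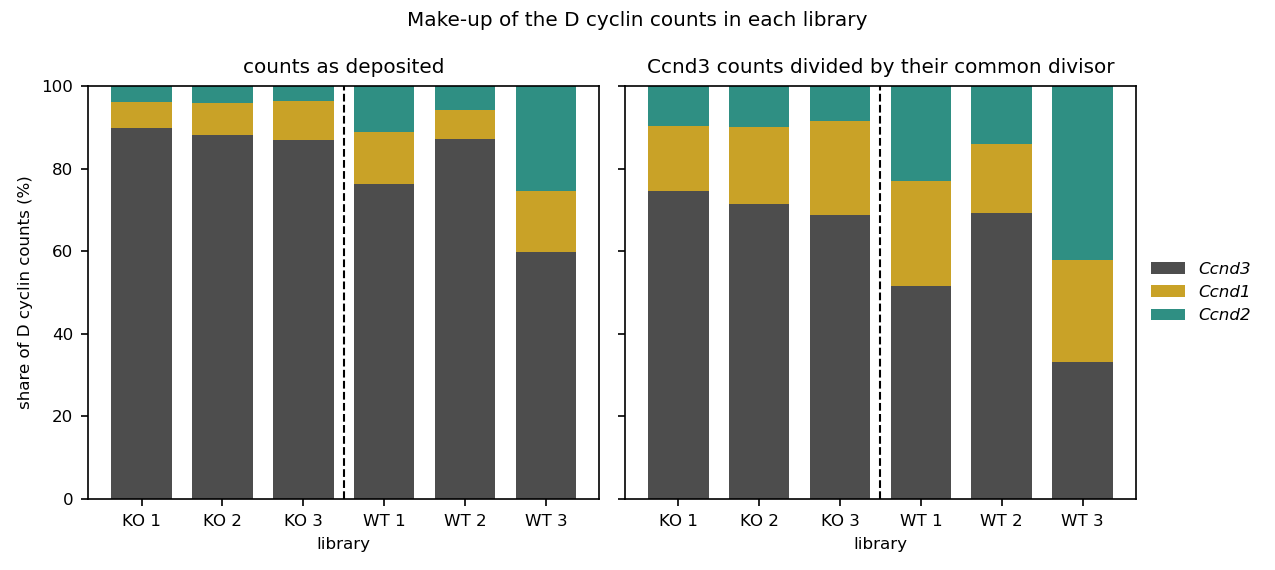
Share of the summed D cyclin counts (%) taken by Ccnd3, Ccnd1 and Ccnd2 in 3 KO and 3 WT libraries, as deposited (left) and with the common divisor of the Ccnd3 counts removed (right). KO libraries resemble each other and WT 2, while Ccnd2 reaches 25.3% (left) and 42.1% (right) in WT 3.

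A second open question of counting concerned the gene on the other strand. Bysl, which encodes bystin, a ribosome assembly factor, runs against Ccnd3 (ENSMUSG00000034165.16, mm10 chr17:47505051-47599691), and their exons overlap by 361 bases at their 3′ ends. Bysl was the second closest gene to Ccnd3 over the libraries (r = 0.9881), after Aqr (0.9937) and before Bloc1s2 (0.9784). Its counts were 8112, 4055 and 3372 in KO 1 to 3 and 7366, 3796 and 10418 in WT 1 to 3. Bysl held 1.06, 1.06 and 1.08 times the divided Ccnd3 count in KO 1 to 3 and 1.07, 1.14 and 1.07 times in WT 1 to 3. The excess was only 219 to 659 counts in any library. The sources used here do not state whether counting used strand, and tags of Ccnd3 and Bysl then cannot be told apart, so the level of either gene is uncertain.

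**Figure D3:**
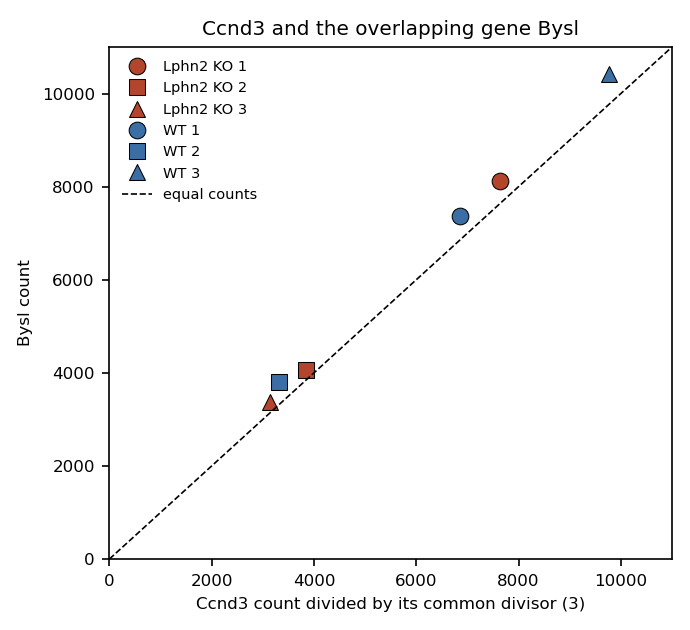
Bysl counts against Ccnd3 counts divided by their common divisor of 3, 1 point per library; the dashed line marks equal counts. All 6 libraries lie just above the line, by 219 to 659 counts, whatever their group.

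The E cyclins, which activate Cdk2, separated KO 2 and KO 3 from the other 4 libraries. This split was not particular to them. On the axis of largest spread over all tested genes (first principal component, 54.1% of variance), KO 2 and KO 3 stood at 99.7 and 88. The other libraries ran from -73.6 to -14.3. Ccne1 stood at 31.6, 9.47 and 7.77 CPM in KO 1 to 3 and at 25, 34.9 and 37.3 CPM in WT 1 to 3. KO 1 lay inside the WT range, and KO 2 and KO 3 below all other libraries. Over the 3 KO libraries the log2 fold change was -0.98 ± 0.53 (SE, edgeR adjusted p = 0.416). Without KO 1, Ccne1 was called lower at -1.91 ± 0.27 (edgeR adjusted p = 0.025), and with KO 1 alone against WT it was -0.01.

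Ccne2 had the same shape at a smaller scale. Its level was 53.9, 27.2 and 27.3 CPM in KO 1 to 3 and 47.8, 52 and 46.7 CPM in WT 1 to 3. KO 1 was here the highest library of all, and the log2 fold change over all libraries was -0.43 ± 0.29 (SE, edgeR adjusted p = 0.515). Without KO 1 it was called lower at -0.84 ± 0.17 (edgeR adjusted p = 0.0498), and with KO 1 alone it turned to 0.16. Ccne1 and Ccne2 were the only members called in that fit, in which 3.27% of all genes were called lower and 1.77% higher. The exons of Ccne2 overlap those of Ints8, a subunit of the Integrator complex on the other strand, by 609 bases. Ints8 counts were 0.351 to 0.436 of those of Ccne2 in the 6 libraries, and the cause of that steady ratio was not tested. Oraov1 overlaps exons of Ccnd1 by 1100 bases, with an r of 0.3244. 9330179D12Rik overlaps exons of Ccnd2 by 368 bases and had 0 counts in every library. That overlap is at the 5′ end of Ccnd2, away from its 3′ tags, so the 0 counts cannot tell whether overlapping genes share tags.

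Several marker sums also set KO 2 and KO 3 apart. Trophoblast markers summed to 3750, 52.9 and 146 CPM in KO 1 to 3 and 5070, 5960 and 1430 CPM in WT 1 to 3; all 12 were lower on average in KO and none was at 0 in all libraries. The 8 yolk sac endoderm markers summed to 194, 25.2 and 38.3 CPM in KO 1 to 3 and 417, 554 and 669 CPM in WT 1 to 3. The 7 primitive erythroid markers summed to 751, 76.9 and 56.3 CPM in KO 1 to 3 and 2220, 1920 and 1490 CPM in WT 1 to 3. The 6 uterine natural killer markers were highest in these libraries, at 443, 801 and 631 CPM in KO 1 to 3 and 204, 319 and 151 CPM in WT 1 to 3. For yolk sac, erythroid and natural killer markers KO 1 also lay outside the WT range. The part of these markers in the E cyclin levels was not tested. The genes closest to Ccne2 over the libraries were Dnmt3b (0.9970), Hand1 (0.9956) and Clip2 (0.9953). Hand1, which is on the trophoblast marker list and drives giant cell fate, stood at 57.1, 1.67 and 1.14 CPM in KO 1 to 3 and 32.1, 66 and 28.2 CPM in WT 1 to 3. Closest to Ccne1 were Gyltl1b, now Large2 (0.9993), Ddx39 (0.9956) and Mcm3ap (0.9945), and 153 genes had an r above 0.95 with Ccne1 and 265 with Ccne2.

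Of the kinases, Cdk4 is a main partner of the D cyclins. It stood at 57.3, 64.5 and 61.1 CPM in KO 1 to 3 and at 69, 71.5 and 98.6 CPM in WT 1 to 3. No KO library reached the lowest WT library, although the gap between KO 2 and WT 1 was small and WT 3 stood well above the other 2 WT libraries. The log2 fold change was -0.39 ± 0.19 (SE, edgeR adjusted p = 0.375), and -0.21 without WT 3. Tspan31, a tetraspanin gene on the other strand whose exons overlap those of Cdk4 by 641 bases, ran the other way, at 44.9, 49.7 and 45.6 CPM in KO 1 to 3 and 35, 39.5 and 35.6 CPM in WT 1 to 3. Closest to Cdk4 over the libraries were Ptbp1, Pgm2l1 and B3gat1 (0.9932, 0.9906 and 0.9877), with 45 genes above 0.95. B3gat1 had 0, 1 and 2 counts in KO 1 to 3 and 14, 14 and 1101 in WT 1 to 3, so its likeness to Cdk4 rests on WT 3. Tags shared between Cdk4 and Tspan31 cannot be told apart without strand. Myc, named here for the E-boxes of Cdk4 and outside the rule for naming genes, stood at 69.5, 38.7 and 47.9 CPM in KO 1 to 3 and 48, 42.2 and 39 CPM in WT 1 to 3 (log2 fold change 0.27 ± 0.24 SE, edgeR adjusted p = 0.617).

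Cdk6, the other kinase of D cyclins, was the least abundant member. Its counts were 41, 33 and 32 in KO 1 to 3 and 19, 31 and 63 in WT 1 to 3, which made 1.61, 2.2 and 2.28 CPM in KO 1 to 3 and 0.688, 1.89 and 1.65 CPM in WT 1 to 3. The groups overlapped (log2 fold change 0.53 ± 0.55 SE, edgeR adjusted p = 0.678), and WT 1 was the lowest. The difference was smaller than its SE. Closest to Cdk6 were Trim13, Glod4 and Flywch1 (0.9893, 0.9878 and 0.9865), with 26 genes above 0.95.

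The inhibitor Cdkn1a, which encodes p21, had the highest fold change of the members. It stood at 80.6, 119 and 145 CPM in KO 1 to 3 and at 56.2, 93.2 and 61.8 CPM in WT 1 to 3. KO 2 and KO 3 lay above all WT libraries, but KO 1 lay below WT 2, so the groups overlapped. The log2 fold change was 0.71 ± 0.29 (SE, unadjusted p = 0.0421, edgeR adjusted p = 0.306), between 0.22 with KO 1 alone and 0.97 without WT 2. It kept its sign in all 16 alternatives and passed in none, with adjusted p from 0.107 to 1. Closest to it were Pvrl1, now Nectin1 (0.9983), Tjap1 (0.9971) and Fam20c (0.9970), and 232 genes had an r above 0.95.

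Ratios of counts within a library need no scaling between libraries. Those with Ccnd3 use its deposited counts, which share the divisor 3, so their absolute size is uncertain. The ratio of Cdkn1a to Cdk4 was 1.41, 1.85 and 2.38 in KO 1 to 3 and 0.814, 1.3 and 0.627 in WT 1 to 3, without overlap, though Cdk4 was itself higher in each WT library. That of Ccnd3 to Cdk4, at 15.7, 11.9 and 11 in KO 1 to 3 and 10.8, 8.51 and 7.76 in WT 1 to 3, did not overlap either. Nor did that of Cdkn1b to Cdk4, while those of Ccne1 and Ccne2 to Cdk4 did overlap. How often such ratios separate over all genes was not tested. The ratio of Cdkn1a to Ccnd3 was 0.0897, 0.155 and 0.217 in KO 1 to 3 and 0.0754, 0.153 and 0.0808 in WT 1 to 3, so that KO 2 stood level with WT 2. The markers of decidual stroma did not all follow 1 direction. Pgr, the progesterone receptor, and Des, desmin, were at 78, 125 and 174 CPM and at 2010, 3530 and 3540 CPM in KO 1 to 3. In WT 1 to 3 Pgr was at 59.6, 74.6 and 48 CPM and Des at 1170, 1490 and 928 CPM. Prl8a2, a prolactin of differentiated decidua, was at 2900, 1280 and 5330 CPM in KO 1 to 3 and 15000, 28700 and 18000 CPM in WT 1 to 3. Of the 9 decidual markers, 5 had all KO values above all WT values and 2 all below, beside 12.1% and 9.39% of all genes. Their part in the Cdkn1a level was not tested.

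The remaining inhibitors did not separate the groups. Cdkn1b, encoding p27, stood at 13.3, 16.7 and 24.1 CPM in KO 1 to 3 and 15.5, 13.7 and 18.1 CPM in WT 1 to 3 (log2 fold change 0.19 ± 0.27 SE, edgeR adjusted p = 0.764). KO 1 was its lowest library and KO 3 its highest, and without KO 3 the sign turned (-0.07). Cdkn2c, encoding p18, stood at 9.14, 21.4 and 12.1 CPM in KO 1 to 3 and 8.55, 8.29 and 11.3 CPM in WT 1 to 3. Only KO 2 lay well above the rest (log2 fold change 0.60 ± 0.36 SE, edgeR adjusted p = 0.46), and without KO 2 it was 0.19. Closest to Cdkn1b were Oraov1, Cops3 and Cyhr1 (0.9950, 0.9928 and 0.9769), with 10 genes above 0.95, and closest to Cdkn2c were Elk3, Stambp and Serpina3g (0.9885, 0.9759 and 0.9750), with 14.

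**Figure D4:**
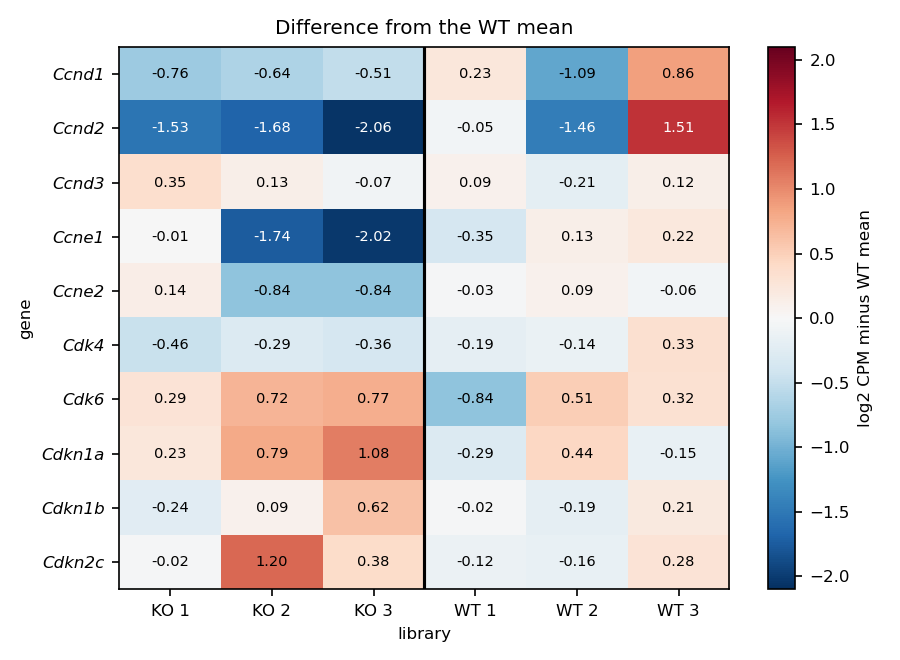
Difference of each library from the WT mean (log2 CPM, colour and printed value) for the 10 genes, with 3 KO libraries left of the line and 3 WT libraries right of it. Ccnd2 was at -1.53 to -2.06 in KO libraries and at -1.46 in WT 2, while Ccne1 was at -1.74 in KO 2, -2.02 in KO 3 and -0.01 in KO 1.

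In the wider pathway, 0 genes of any list below were called in either direction (edgeR over all genes). As background for the signs in each list, 6453 of all tested genes had a fold change above 0 and 7395 below. The remaining CDK inhibitors held a wide gap. Cdkn1c, which encodes p57, an imprinted inhibitor needed by trophoblast giant cells, stood at 348, 13.1 and 19.5 CPM in KO 1 to 3 and 439, 463 and 373 CPM in WT 1 to 3. All KO values lay below WT, but KO 1 only just, in the same split of libraries as the E cyclins (log2 fold change -1.74 ± 1.14 SE, edgeR adjusted p = 0.504). Cdkn2b, encoding p15, was low, with 1.92, 2.07 and 1.14 CPM in KO 1 to 3 and 0.906, 1.4 and 0.679 CPM in WT 1 to 3. Their median over 4 genes was 0.27 on the log2 scale, with 3 above and 1 below 0; it was 0.03 without KO 1, 0.09 without WT 3, 0.17 without WT 2, 0.42 without KO 3, 0.54 without WT 1 and 0.62 with limma-voom. The counts of Cdkn1c, like those of E2f1 and Mdm2, shared the divisor 2, and those of Cdc20 the divisor 3.

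The retinoblastoma and E2F family, on which D cyclins act, held 13 genes, of which 10 lay below 0 (median log2 fold change -0.22, but -0.09 without KO 3, -0.34 without WT 2 and -0.39 without KO 1). E2f2, an activating E2F factor, stood at 2.71, 0.4 and 1.07 CPM in KO 1 to 3 and 7.68, 6.03 and 23 CPM in WT 1 to 3, without overlap (-3.10 ± 0.80 SE, edgeR adjusted p = 0.178). E2f1 was at 31.7, 20.1 and 23.2 CPM in KO 1 to 3 and 37.9, 30 and 47.2 CPM in WT 1 to 3 (-0.62 ± 0.25 SE, edgeR adjusted p = 0.306). Cdk2 partners and turnover genes held 8 tested genes, of which 7 lay below 0 (median -0.33). Skp2, which marks p27 for destruction, was at 25.8, 8.53 and 6.84 CPM in KO 1 to 3 and 28.5, 26.9 and 57 CPM in WT 1 to 3 (-1.44 ± 0.56 SE, edgeR adjusted p = 0.287). Cdc25a, the phosphatase that activates Cdk2, was at 34.2, 10.9 and 13.7 CPM in KO 1 to 3 and 37.3, 27.2 and 37.9 CPM in WT 1 to 3. For both genes KO 2 and KO 3 were the lowest libraries.

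Targets of E2F in DNA replication comprised 18 genes, of which 16 lay below 0 (median -0.49). The median was -0.79 without KO 1 and -0.25 to -0.31 without KO 2, KO 3, WT 1 or WT 3. Their median difference from the WT mean was 0.10 in KO 1, -0.71 in KO 2 and -0.91 in KO 3, against 0.10, -0.42 and 0.14 in WT 1 to 3. Mcm7, of the replicative helicase, stood at 34, 24.1 and 21.4 CPM in KO 1 to 3 and 47.7, 35.4 and 63.7 CPM in WT 1 to 3 (-0.89 ± 0.28 SE, edgeR adjusted p = 0.221). Rrm1, of ribonucleotide reductase, ran the other way, at 129, 187 and 223 CPM in KO 1 to 3 and 105, 138 and 110 CPM in WT 1 to 3 (0.61 ± 0.24 SE, edgeR adjusted p = 0.294). Mitosis genes had a median of -0.65 (-0.20 with KO 1 alone against WT), with 12 of 12 below 0, beside 7395 of 13848 tested genes. Their median difference from the WT mean was -0.16, -0.85 and -0.92 in KO 1 to 3, against 0.04, -0.49 and 0.36 in WT 1 to 3, so WT 2 lay below KO 1. Cdc20, which activates the anaphase promoting complex, was at 22.5, 18.4 and 18.8 CPM in KO 1 to 3 and 27.7, 28.7 and 40.8 CPM in WT 1 to 3. Mki67, a marker of cycling cells, was at 16.4, 11.6 and 12.8 CPM in KO 1 to 3 and 22.8, 16.6 and 36.5 CPM in WT 1 to 3, with WT 2 close to KO 1.

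The p53 list, of which Cdkn1a is a classic target, had a median of 0.14 over 18 tested genes, with 12 above and 6 below 0. That median was 0.08 without WT 2 and 0.03 with the filter of 5 CPM in 3 libraries. Perp, an epithelial desmosome protein, had the smallest p of the list, at 9.18, 3.67 and 9.62 CPM in KO 1 to 3 and 39.5, 39.7 and 35.3 CPM in WT 1 to 3 (-2.35 ± 0.37 SE, edgeR adjusted p = 0.146). Phlda3, an inhibitor of Akt, was at 63.7, 78.9 and 76.1 CPM in KO 1 to 3 and 61.4, 53.3 and 41.1 CPM in WT 1 to 3 (0.49 ± 0.20 SE, edgeR adjusted p = 0.307). Mdm2, the ubiquitin ligase of p53, stood at 256, 219 and 230 CPM in KO 1 to 3 and 303, 289 and 166 CPM in WT 1 to 3, with overlap.

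**Figure D5:**
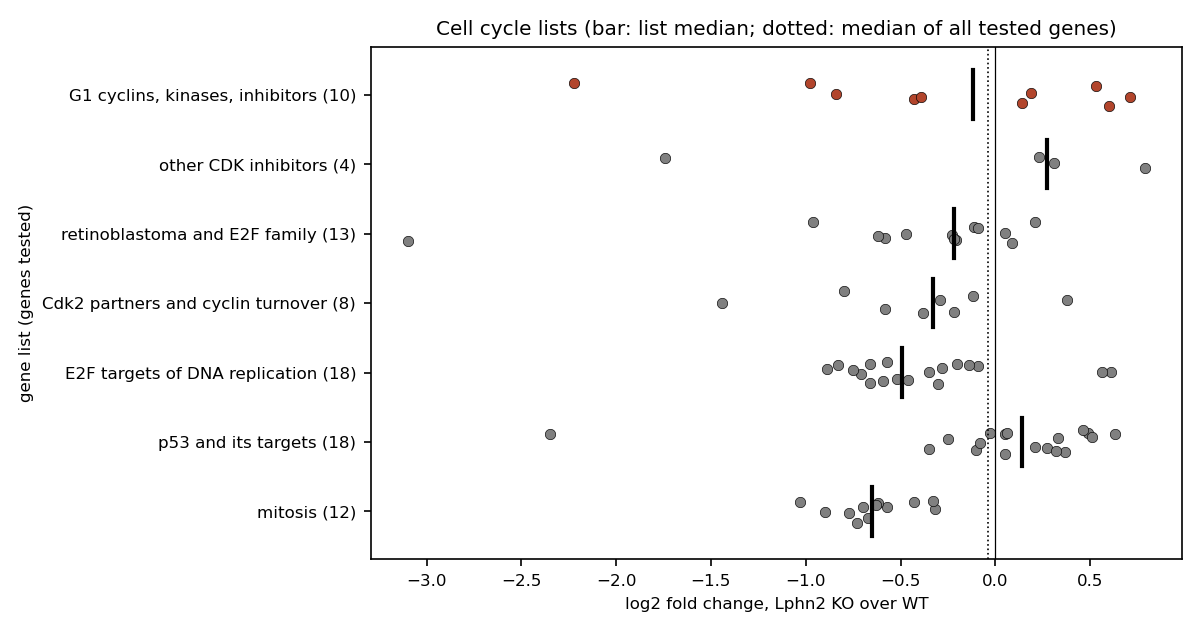
Log2 fold change (KO over WT) of each tested gene, 1 point per gene, in the 10 members (top, coloured) and 6 lists of the wider pathway. Bars mark list medians, which run from -0.65 (mitosis) to 0.27 (other CDK inhibitors), and the dotted line marks the median of all tested genes, -0.04.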

How the data were processed

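RNA of 6 libraries was read as 3′ tags with the Lexogen QuantSeq kit from 500 ng of total RNA, per the labels' protocols. The authors deposited raw counts per gene symbol, 1 table per library, without normalization. Bowtie2, edgeR and build mm10 are named in the submitters' processing notes; their versions, the annotation, the counting program and its use of strand were not stated in the sources at hand. Of 11680 genes with at least 10 counts in each library, 2330 had counts sharing a divisor above 1.

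Groups came from the titles. Low genes were removed by filterByExpr at a minimum count of 10 (edgeR 4.0.16), and counts were scaled by TMM and compared by the quasi-likelihood test with no covariate, with Benjamini-Hochberg adjustment over 13848 genes. SE is the log2 fold change divided by the root of F. Log2 CPM used a prior count of 2. DESeq2 1.42.0 and limma 3.58.1 (voom) were alternatives, beside other scalings, filters, a replicate block, divisors removed and libraries left out. The edgeR step was tested on simulated data, with the same dispersion for every gene and no split among KO libraries. That test does not cover the spread of these libraries. R 4.3.3 and Python 3.11.15 were used. Chi-square over its degrees of freedom was 23 (KO 2 against KO 3) to 296 between libraries, so all pairs differed by more than counting noise, which does not tell separate embryos from technical repeats. Positions are from GENCODE M21 on mm10.

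Members, lists and the naming rule were chosen with earlier results of these data known. The rule names all members, the 3 genes closest to each member by Pearson r, and the 2 genes of smallest p in each pathway list; Adgrl2, Mdm2, Myc, Pgr, Des, Prl8a2, Nkx2-5 and the overlapping genes were added after their values were seen.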

Additional observations from a re-analysis of the deposited data

How the results depend on the processing

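Over 16 alternatives (15 for Cdk6, which a filter of 5 CPM in 3 libraries removed), Ccnd1, Ccnd2, Ccnd3, Ccne1, Cdk4, Cdk6 and Cdkn1a kept the sign of their fold change. With DESeq2, 384 genes were lower and 498 higher, and 1 member was lower (Ccnd2). Leaving out 1 library at a time gave 0 to 466 genes lower and 0 to 252 higher, and 0 to 2 members lower; the high end of each is the fit without KO 1, where Ccne1 and Ccne2 were called, and the cause was not tested. The count lower was 0 without KO 2, KO 3 or WT 1 and 11 without WT 2. With KO 1 alone against WT, its spread assumed to be that of the WT libraries, 0 genes were lower, and the sign turned for Ccne2 (0.16), Cdkn1b (-0.23) and Cdkn2c (-0.02). Cdkn1b ran from -0.07 to 0.37 with 1 library left out. The E2F target median went to 0.08 with KO 1 alone.

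With the replicate block, 0 genes were lower, against 7 without it. Deviations of same-numbered libraries from their group means correlated at 0.13, -0.02 and 0.07. KO 1 and KO 3 correlated best with the WT library of the same number, and KO 2 with WT 3 (0.07). Correlations this small cannot tell whether the labels' numbers pair the samples. The first number of the code in the descriptions differs for WT 1, whose group then has 1 sample in that set. The fit without WT 1 called 0 members, but it called 0 of all 13993 genes in either direction, so this count tells nothing particular to the members.

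Dividing the counts by common divisors moved the Ccnd3 share of D cyclin counts to 71.7% in KO and 51.3% in WT libraries, against 88.3 ± 1.49% and 74.3 ± 13.7% as deposited (SD, n = 3 each). Cdk6 had the fewest counts, 19 to 63 per library. Ccne1 had a similar SE (0.53, against 0.55 for Cdk6) at more counts, but an SE of 0.27 without KO 1. The part of depth in the SE of Cdk6 was not tested.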
